A study of Arabidopsis thaliana with 9 samples.

Results

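Transcripts of XTH and expansin genes, the 2 best known families of wall-loosening proteins in growing plant cells, were examined in the apical hook of Arabidopsis thaliana seedlings raised in darkness. The members were taken by gene identifier from a table of CPM values (reads of a gene scaled to a fixed library total). Of 21 listed XTH genes 19 were in the table, and of 19 listed expansin genes 16 were, so 35 of the 16383 genes of the table are described. XTH19, XTH20, EXPA2, EXPA14 and EXPB3 were not analysed here. XTH10, XTH11, EXPA12, EXPA13 and EXPA20 are in the table but not among the listed members.

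The 3 genotypes were tmk1, which carries the allele tmk1-1, the double mutant iaa32iaa34, and Col-0, called WT here. There were 3 libraries of each genotype, and per the labels they are biological triplicates. Seedlings of all genotypes were kept in darkness at 22 °C and taken at 45 h. Each library came from about 50 pooled hooks of about 2 mm, cut without cotyledons. TMK1 encodes a transmembrane receptor-like kinase. IAA32 and IAA34 encode Aux/IAA repressors without the usual degron. The comparisons ask which wall-loosening transcripts depend on the kinase or on the repressors, since the title speaks of auxin signalling that guides uneven growth.

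The hook forms because cells on its outer side elongate more than cells on its inner side. A growing primary wall holds cellulose microfibrils joined by xyloglucan. XTH proteins cut xyloglucan chains and rejoin or hydrolyse them, and expansins loosen the contacts between wall polymers without cutting them, at acid pH. Auxin promotes hypocotyl elongation through wall acidification, and both families are known for transcripts that follow hormones, light and touch.

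The libraries held an estimated 10077093 to 13601488 reads, inferred from the steps between CPM values. TMK1 had 45.4, 29 and 26.8 CPM in tmk1 and 387 to 469 CPM in WT, and IAA32 had 6.44, 10.5 and 8.48 CPM in iaa32iaa34 and 43 to 55.3 CPM in WT, so both labels hold for these genes. IAA34 was not analysed here. All 4 epidermis markers and all 4 genes of a hook list (HLS1, PIF3, PIF4 and KNAT1) were measured, with summed levels of 1829 to 2566 CPM and 322 to 401 CPM. HLS1 was the lowest of the hook list, at 7.84 to 23.8 CPM. The sum thus mostly reflects the other genes and is not read as a measure of hook tissue. Of 4 root hair markers only RHD2 was in the table, at 3.69 to 18.9 CPM. Libraries of 1 genotype differed in a list of 23 measured photosynthesis genes, known from cotyledons. These genes summed to 29961, 23070 and 25538 CPM in tmk1, to 28592, 11976 and 25317 CPM in iaa32iaa34, and to 13939, 12478 and 6921 CPM in WT. The second iaa32iaa34 library was therefore within the WT range of this list and the other iaa32iaa34 libraries were not. In whole hooks, fewer cells of a type and less RNA per cell cannot be told apart.

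In WT hooks the levels of the XTH genes spanned more than those of the expansin genes. Per kb of transcript, XTH4, an enzyme with xyloglucan endotransglucosylase activity, was the highest member, at 1200 CPM per kb in tmk1, 1560 in iaa32iaa34 and 1180 in WT. XTH15 followed at 635, 456 and 553 CPM per kb in tmk1, iaa32iaa34 and WT, and XTH17 at 294, 526 and 516. Both are known as transcripts that shade induces. The libraries of XTH15 and XTH17 overlapped in WT, so their order is not fixed. The lowest XTH genes in WT were XTH6, at 22.1 CPM per kb in tmk1, 21.9 in iaa32iaa34 and 3.1 in WT, and XTH7, at 19, 22.8 and 8.18 CPM per kb in the same order. XTH4 alone made up 39.3% of the summed XTH CPM in tmk1, 45.3% in iaa32iaa34 and 38.4% in WT. The sum over the 19 XTH genes was 4739 ± 122 CPM in tmk1, 5346 ± 904 in iaa32iaa34 and 4759 ± 656 in WT (SD, n = 3), so the total differed by less than the spread between libraries.

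Among the expansins, EXPA3 and EXPA11, both alpha-expansins, were highest per kb, EXPA3 at 242, 332 and 346 CPM per kb in tmk1, iaa32iaa34 and WT, and EXPA11 at 181, 246 and 331. Their WT libraries overlapped, so neither can be placed above the other. EXPA9, EXPA1, EXPA8, EXLA2 and EXPA6 stood between 121 and 183 CPM per kb in WT. EXLB1 and EXLA3, members of the expansin-like groups, were lowest, at 3.53 and 6.38 CPM per kb in WT. The 16 expansins summed to 1854 ± 228 CPM in tmk1, 2347 ± 451 in iaa32iaa34 and 2506 ± 314 in WT (SD, n = 3). All 3 tmk1 sums, the highest of which was 2002 CPM, lay below the lowest WT sum of 2271 CPM, whereas the iaa32iaa34 sums of 1849 to 2728 CPM overlapped with WT. Much of the difference in tmk1 lay in EXPA3, EXPA9 and EXPA11, with means of 404, 68.3 and 238 CPM in tmk1 and 578, 249 and 435 CPM in WT. Of the 16 expansins 3 had a higher mean log2 level in tmk1 than in WT.

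**Figure D1:**
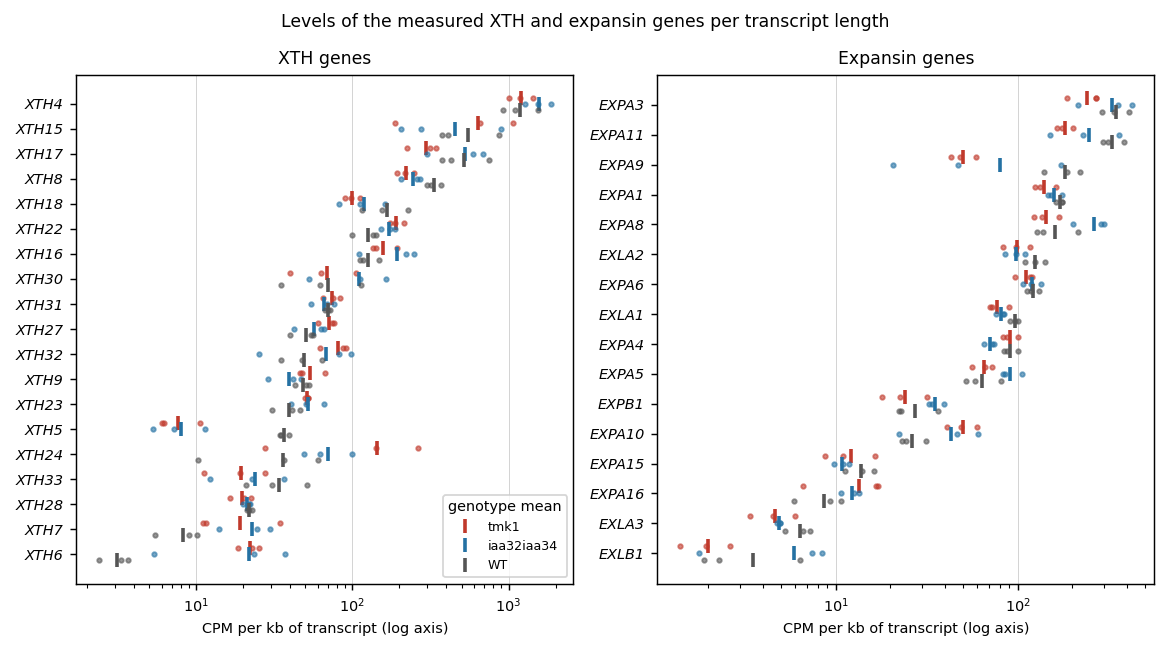
CPM per kb of transcript on a log axis for the 19 measured XTH genes (left) and 16 measured expansin genes (right), with 1 point per library and a bar at each genotype mean (n = 3). XTH4 was highest at 1180 CPM per kb in WT, and the WT points of XTH5 lie above, and those of XTH6 below, all points of both mutants.

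XTH5 (AT5G13870), a xyloglucan-modifying enzyme of the same subgroup as XTH4, was the member that fell in both mutants. It had 11.9, 20.2 and 11.6 CPM in tmk1, 10.1, 21.9 and 13.8 CPM in iaa32iaa34, and 67.5, 66.5 and 75.5 CPM in WT. All 6 mutant libraries were far below all 3 WT libraries, and the 2 mutants overlapped. On the log2(CPM + 1) scale used for all fold changes here, which understates those of low genes, the difference from WT was -2.23 ± 0.27 in tmk1 (SE; limma, adjusted p = 0.0156) and -2.18 ± 0.27 in iaa32iaa34 (limma, adjusted p = 0.0155). Adjustment was by Benjamini-Hochberg over all 16383 genes, with a threshold of 0.05. Between tmk1 and iaa32iaa34 the difference was -0.04 ± 0.27. In the second iaa32iaa34 library, whose photosynthesis level was within the WT range, XTH5 had 21.9 CPM, below WT but the highest of the 6 mutant libraries. Without that library the log2 fold change of XTH5 was -2.46 ± 0.24 in iaa32iaa34 (limma, adjusted p = 0.00301). The 2 comparisons share their WT libraries and are not independent. Leaving out any 1 WT library took XTH5 over the 0.05 threshold in both comparisons, with adjusted p-values of 0.0593 to 0.0954 in tmk1 and 0.0746 to 0.087 in iaa32iaa34 (limma), while the log2 fold change stayed between -2.26 and -2.13. The same happened in tmk1 without replicate 1 (adjusted p = 0.101) or replicate 3 (adjusted p = 0.0792), and in iaa32iaa34 without replicate 1 (adjusted p = 0.0704) or replicate 3 (adjusted p = 0.101, all limma).

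XTH4 (AT2G06850), a close paralog of XTH5 with far more transcript, was not placed like XTH5. Its levels were 1550, 2211 and 1822 CPM in tmk1, 1976, 2395 and 2889 CPM in iaa32iaa34, and 1421, 1690 and 2377 CPM in WT. The genotypes overlapped, and the log2 fold changes of XTH4 against WT were 0.04 ± 0.25 in tmk1 and 0.42 ± 0.25 in iaa32iaa34 (limma, adjusted p = 0.942 and 0.424). In RefSeq TAIR10.1 none of the 1873 stretches of 50 bases in the XTH5 transcript occurs in a transcript of another gene. Among the 35 measured members, XTH17 and XTH18 share such stretches with XTH19, and EXLA1 and EXLA3 with each other, in under 2% of each transcript, so the division of their reads is less certain.

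XTH6 (AT5G65730) was higher in both mutants by the largest factor of any member, without passing the test. It had 36.9, 27.1 and 33.6 CPM in tmk1, 54.2, 7.89 and 34.4 CPM in iaa32iaa34, and 4.82, 5.36 and 3.5 CPM in WT. No mutant library overlapped with WT, but the second iaa32iaa34 library was close to it. The log2 fold changes were 2.60 ± 0.52 in tmk1 and 2.24 ± 0.52 in iaa32iaa34 (limma, adjusted p = 0.0697 and 0.136). With the replicate number as a block the difference in tmk1 passed (limma, adjusted p = 0.0427). Without the second iaa32iaa34 library it passed in tmk1 (limma, adjusted p = 0.000996) and in iaa32iaa34, where the log2 fold change was then 3.01 ± 0.24 (limma, adjusted p = 0.000734). Leaving out that library changes no tmk1 or WT value and acts in the tmk1 comparison through the shared estimate of spread. Of all genes 4.3% then passed in tmk1 and 3.94% in iaa32iaa34. Without the first iaa32iaa34 library XTH6 passed in tmk1 as well (limma, adjusted p = 0.0326), beside 1.06% of all genes. XTH6 thus moved with the photosynthesis list, which was lowest in the same iaa32iaa34 library, and the part of that list's tissue in the result was not tested.

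**Figure D2:**
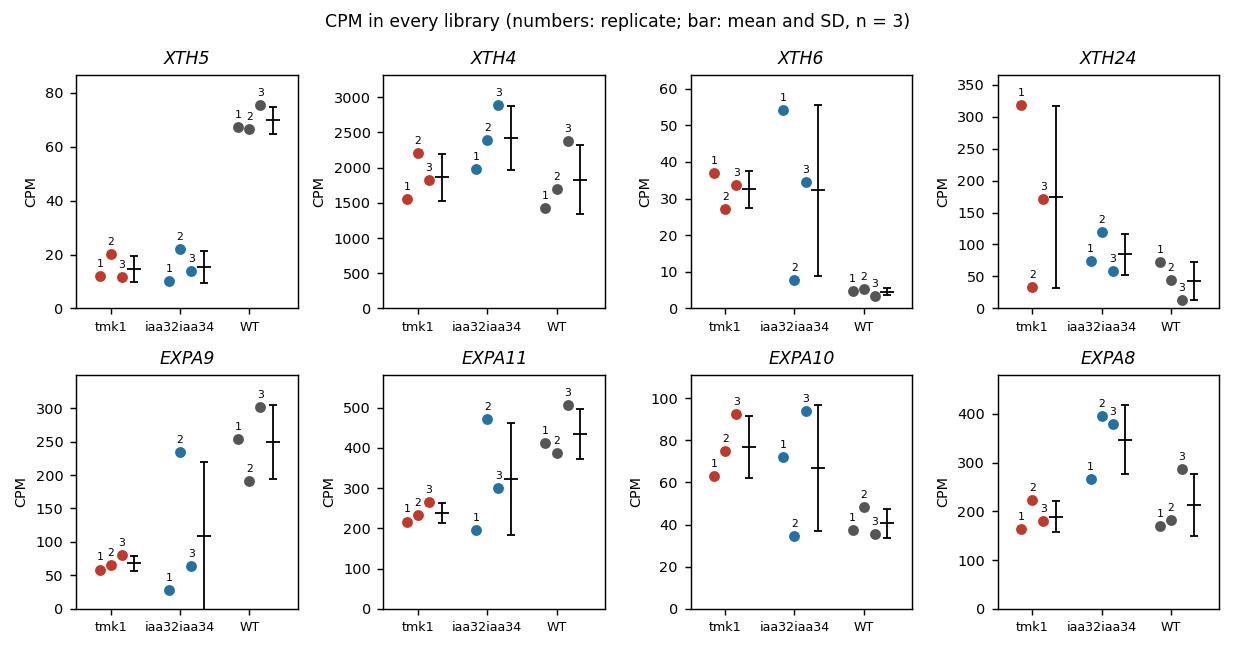
CPM of 8 members in every library, by genotype, with points numbered by replicate and a bar for the mean and SD (n = 3; the lower bar of EXPA9 in iaa32iaa34 ends below the axis). XTH5 lies at 10.1 to 21.9 CPM in the mutants and 66.5 to 75.5 CPM in WT. In XTH5, XTH6, EXPA9, EXPA10 and EXPA11 the second iaa32iaa34 library lies nearer to WT than the other iaa32iaa34 libraries do. In XTH4, XTH24 and EXPA8 it does not.

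In tmk1 hooks against WT, 1 of 19 XTH genes changed, XTH5, which fell. Over all genes tested the share that changed was 0.317%, and the share that fell was 0.195% (limma, adjusted p under 0.05). With the replicate number as a block 2 XTH genes passed, XTH5 and XTH6, beside 1.97% of all genes. At an unadjusted p under 0.05 there were 9 XTH genes, beside 21.4% of all genes. Levels did not overlap between genotypes for 9 XTH genes, 4 lower and 5 higher in tmk1, where the share over all genes was 30.4%, with 18.9% lower and 11.5% higher. The median log2 fold change of the XTH genes was 0.088, and that of all genes -0.063. Leaving out 1 library at a time gave XTH medians of 0.051 to 0.249. XTH7, XTH22, XTH23 and XTH27 were the other members with all tmk1 libraries above WT, and XTH8, XTH17 and XTH18 the others with all tmk1 libraries below.

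XTH22, also called TCH4, is the touch-induced member of the family. It had 338, 276 and 297 CPM in tmk1, 299, 244 and 275 CPM in iaa32iaa34, and 217, 225 and 159 CPM in WT. Every mutant library was above every WT library, with log2 fold changes of 0.61 ± 0.17 in tmk1 and 0.45 ± 0.17 in iaa32iaa34 (limma, adjusted p = 0.0945 and 0.235). XTH8 lay the other way in both mutants. It had 234, 304 and 266 CPM in tmk1, 250, 331 and 316 CPM in iaa32iaa34, and 389, 367 and 451 CPM in WT, a difference of -0.59 ± 0.17 in tmk1 and -0.43 ± 0.17 in iaa32iaa34 (limma, adjusted p = 0.0992 and 0.245). Neither gene passed the test in either mutant.

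XTH17 and XTH18, close relatives known from roots, had all tmk1 libraries below WT and iaa32iaa34 libraries that overlapped with WT, and passed in no comparison. XTH17 had 271, 419 and 382 CPM in tmk1, 364, 716 and 841 CPM in iaa32iaa34, and 518, 459 and 907 CPM in WT. XTH17 had the smallest p of the XTH genes between the mutants, with a log2 fold change of -0.78 ± 0.34 in tmk1 against iaa32iaa34 (limma, adjusted p = 0.609). XTH18 had 114, 123 and 141 CPM in tmk1, 104, 203 and 141 CPM in iaa32iaa34, and 196, 146 and 287 CPM in WT, a difference of -0.68 ± 0.27 in tmk1 (limma, adjusted p = 0.187).

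XTH15 and XTH24 varied widely between libraries of 1 genotype. XTH15 had 1282, 225 and 791 CPM in tmk1, 330, 1073 and 248 CPM in iaa32iaa34, and 1056, 496 and 451 CPM in WT. XTH24, known as MERI5 from meristems, had 318, 33.5 and 171 CPM in tmk1, 74.5, 120 and 59 CPM in iaa32iaa34, and 72.8, 44.3 and 12.5 CPM in WT. In each genotype the library highest in XTH15 was also highest in XTH24, and the lowest was the same too. These 2 genes were set side by side with their values known. How often other pairs of genes share such an order was not computed. XTH24 spanned 25.5-fold over the 9 libraries, the widest range of the measured members, and its log2 fold change in tmk1 of 1.80 ± 0.78 did not pass (limma, adjusted p = 0.214). XTH15 overlaps an opposite-strand gene in TAIR10.1, and the strand setting of the counting is not given in the sources used here, so its reads may include that gene's.

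XTH30 and XTH33, chosen here after their values were seen, differed between libraries along with a list of 8 measured Casparian strip genes, markers of the endodermis. XTH30 had 55.9, 147 and 88 CPM in tmk1, 73.5, 156 and 231 CPM in iaa32iaa34, and 48.8, 86.6 and 159 CPM in WT. XTH33 had 13.6, 33.5 and 22.9 CPM in tmk1, 14.9, 27.5 and 44.1 CPM in iaa32iaa34, and 25, 37 and 61.4 CPM in WT. The Casparian strip list summed to 107, 272 and 208 CPM in tmk1, to 133, 432 and 447 CPM in iaa32iaa34, and to 97.3, 229 and 574 CPM in WT. In tmk1 and in WT both genes had the same order of libraries as this list, and in iaa32iaa34 the first library was lowest in the genes and in the list. The same order in tmk1 and WT was found for 5 of the 35 members, the others being XTH4, EXPA8 and EXPB1. The share of all genes with this order was not computed, so the count is not read as a trait of these members. The part of the list's tissue in their levels was not tested. Neither gene passed in any comparison.

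The steadiest XTH genes were XTH28 and XTH31. XTH28 spanned 1.39-fold and XTH31 1.54-fold over all 9 libraries. XTH28, known from stamen filament growth, averaged 29.4 ± 4.6 CPM in tmk1, 31.7 ± 1.71 in iaa32iaa34 and 32.6 ± 1.3 in WT (SD, n = 3). For XTH31 the means were 103 ± 13.1, 92.3 ± 15.8 and 96.8 ± 3.78 CPM in tmk1, iaa32iaa34 and WT.

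In XTH7 and XTH16, as in XTH6, the second iaa32iaa34 library was the lowest of its genotype. That library was lowest for 9 of the 19 XTH genes and highest for 6. The share over all genes was not computed, so this placing is not read as a trait of these genes. XTH7 had 14.3, 44.4 and 14.8 CPM in tmk1, 31.5, 18 and 38.4 CPM in iaa32iaa34, and 7, 13.1 and 11.5 CPM in WT, with a log2 fold change of 1.37 ± 0.42 in iaa32iaa34 (limma, adjusted p = 0.184). XTH16 had 269, 135 and 301 CPM in iaa32iaa34 and 136, 179 and 143 CPM in WT. Without the second iaa32iaa34 library XTH16 passed in iaa32iaa34, with a log2 difference of 0.90 ± 0.19 (limma, adjusted p = 0.0386), beside 3.94% of all genes. XTH9, XTH23, XTH27 and XTH32 passed in no comparison, with log2 fold changes against WT of -0.33 to 0.73.

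In iaa32iaa34 hooks against WT, 1 of 19 XTH genes changed, again XTH5, which fell. The share of all genes that changed was 0.153%, and that of genes that fell 0.0732% (limma, adjusted p under 0.05). At an unadjusted p under 0.05 there were 5 XTH genes, beside 16.6% of all genes. The groups did not overlap for 5 XTH genes, XTH5 and XTH8 lower and XTH6, XTH7 and XTH22 higher, where the share over all genes was 21.1%, with 14.6% lower and 6.54% higher. The median log2 fold change was 0.174, beside -0.058 for all genes. It was -0.054, with 9 genes higher and 10 lower, without iaa32iaa34 replicate 3, 0.087 without replicate 1, 0.374 without replicate 2, 0.023 without WT replicate 1 and 0.296 without WT replicate 3, so no direction is given for the XTH genes as a group. These 5 are among the 9 XTH genes that did not overlap with WT in tmk1, but the comparisons share the WT libraries. Without the second iaa32iaa34 library 3 XTH genes passed, XTH5, XTH6 and XTH16, beside 3.94% of all genes.

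**Figure D3:**
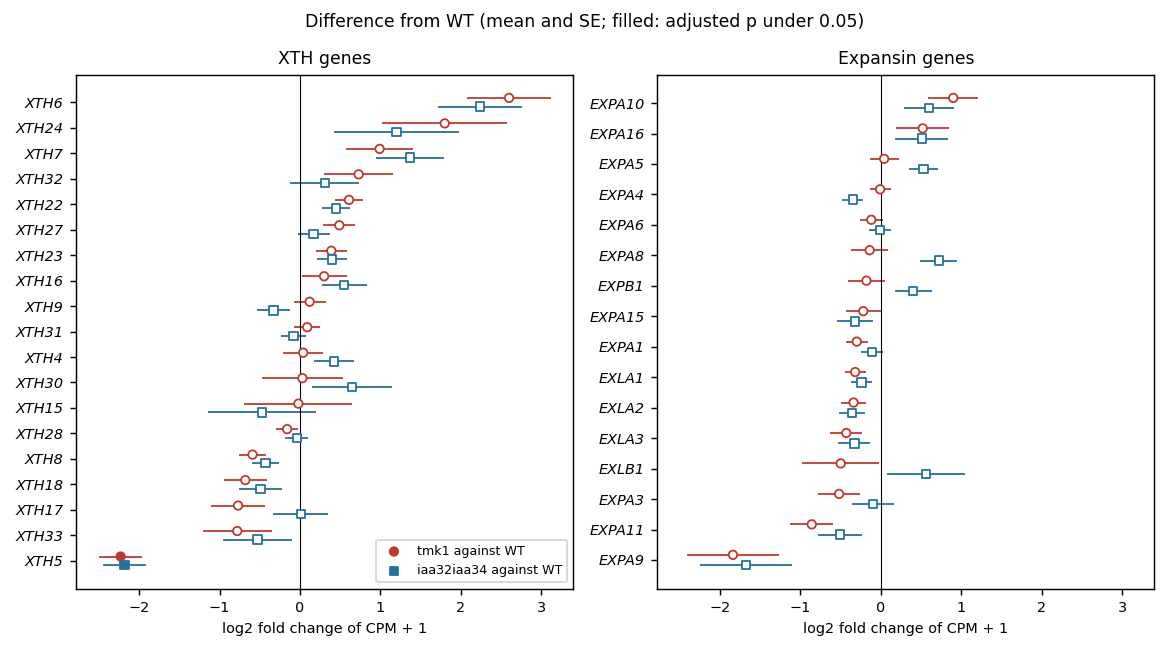
Log2 fold change of CPM + 1 against WT for each measured XTH gene (left) and expansin gene (right) in tmk1 (circles) and iaa32iaa34 (squares), with the standard error from the model as a line. XTH5 is the gene with filled symbols, which mark an adjusted p under 0.05, at -2.23 in tmk1 and -2.18 in iaa32iaa34, and XTH6 has the highest values, 2.60 and 2.24.

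No expansin gene passed in tmk1, although 13 of 16 were lower than in WT, beside 58.1% of all genes. At an unadjusted p under 0.05 there were 4 expansins, beside 21.4% of all genes (limma). The median log2 fold change of the 16 was -0.261, and with median-of-ratios scaling 12 of 16 were lower with a median of -0.198. Without the first tmk1 library or the third WT library, 11 of 16 were lower, with medians of -0.13 and -0.132, and without the second tmk1 library the median was -0.404. Groups did not overlap for 6 expansins, EXPA1, EXPA3, EXPA9, EXPA11 and EXLA1 lower and EXPA10 higher. The share over all genes was 30.4%, with 18.9% lower and 11.5% higher.

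EXPA9 (AT5G02260), an alpha-expansin, had the largest difference from WT among the expansins. It had 58.7, 65.4 and 80.7 CPM in tmk1, 28.1, 235 and 63.7 CPM in iaa32iaa34, and 254, 191 and 301 CPM in WT. All tmk1 libraries and 2 of 3 iaa32iaa34 libraries were far below WT, and the second iaa32iaa34 library lay within the WT range. The log2 fold changes of EXPA9 were -1.84 ± 0.57 in tmk1 and -1.68 ± 0.57 in iaa32iaa34 (limma, adjusted p = 0.119 and 0.213). Without the second iaa32iaa34 library EXPA9 passed in both, at -1.84 ± 0.29 in tmk1 and -2.50 ± 0.32 in iaa32iaa34 (limma, adjusted p = 0.0188 and 0.00833). In that fit 4.3% of all genes passed in tmk1 and 3.94% in iaa32iaa34, beside 0.317% and 0.153% with all libraries. The tmk1 difference itself was unchanged, and the library left out was the one within the WT range. Without the first iaa32iaa34 library the value in iaa32iaa34 was -0.99 ± 0.44 (limma, adjusted p = 0.509). Over the 17 alternatives EXPA9 ranged from -2.01 to -1.69 in tmk1, where it passed in 2, and from -2.50 to -0.99 in iaa32iaa34, where it passed in 1.

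EXPA11 (AT1G20190) showed the same placing of libraries. It had 217, 232 and 266 CPM in tmk1, 197, 472 and 300 CPM in iaa32iaa34, and 413, 387 and 506 CPM in WT. The tmk1 libraries were all below WT, with a log2 difference of -0.86 ± 0.27 (limma, adjusted p = 0.119). With only the tmk1 and WT libraries in the fit, EXPA11 passed (limma, adjusted p = 0.0338), beside 3.8% of all genes. EXPA10, known from leaf growth, was placed the other way. It had 63.2, 74.8 and 92.6 CPM in tmk1, 71.9, 34.5 and 93.7 CPM in iaa32iaa34, and 37.6, 48.3 and 35.6 CPM in WT, with a log2 fold change of 0.90 ± 0.31 in tmk1 (limma, adjusted p = 0.141). It passed in tmk1 with only those 6 libraries (limma, adjusted p = 0.0376). In iaa32iaa34 it passed without the second library of that genotype (log2 fold change 1.01 ± 0.21, limma, adjusted p = 0.0335), beside 3.94% of all genes. In the second iaa32iaa34 library, where the photosynthesis list was lowest of its genotype, EXPA10 was lowest too, while EXPA9 and EXPA11 were highest. Of the 16 expansins 7 were lowest and 4 highest in that library, and the share over all genes was not computed. The part of that list's tissue in these differences was not tested.

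In iaa32iaa34 hooks no expansin passed, 10 of 16 were lower, and the median log2 fold change was -0.109. There were 4 expansins at an unadjusted p under 0.05, beside 16.6% of all genes (limma). The share of all genes with a lower mean was 58.2%. With median-of-ratios scaling 9 of 16 were lower and the median was -0.04, so no direction is given for the family. Without the second iaa32iaa34 library EXPA9 and EXPA10 passed, beside 3.94% of all genes (limma). The groups did not overlap for EXPA4, EXLA1, EXLA2 and EXLA3, which were lower, and for EXPA5, which was higher. The share over all genes was 21.1%, with 14.6% lower and 6.54% higher. EXLA1, EXLA2 and EXLA3, the expansin-like A genes, had log2 fold changes of -0.24 to -0.36 in iaa32iaa34 and -0.32 to -0.43 in tmk1.

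EXPA8 had the smallest p of the expansins between the mutants. It had 163, 224 and 180 CPM in tmk1, 266, 395 and 380 CPM in iaa32iaa34, and 170, 183 and 286 CPM in WT. The tmk1 libraries lay within or just below the WT range and all below iaa32iaa34, with a log2 fold change of -0.86 ± 0.23 in tmk1 against iaa32iaa34 (limma, adjusted p = 0.38) and 0.72 ± 0.23 in iaa32iaa34 against WT (limma, adjusted p = 0.196). EXPA5, known from growth responses to brassinosteroid, was placed alike. It had 80.2, 103 and 95 CPM in tmk1, 121, 119 and 150 CPM in iaa32iaa34, and 83.4, 74.5 and 116 CPM in WT, a difference of -0.49 ± 0.18 between the mutants (limma, adjusted p = 0.554). EXPA4 went the other way, at 135 ± 13.6 CPM in tmk1, 106 ± 6.71 in iaa32iaa34 and 136 ± 13 in WT (SD, n = 3). EXPB1, a beta-expansin, had 27.4, 48.3 and 34.3 CPM in tmk1, 49.5, 51.6 and 60 CPM in iaa32iaa34, and 34, 35 and 55.5 CPM in WT.

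Between tmk1 and iaa32iaa34 none of the 35 members passed, beside 0.0549% of all genes (limma, adjusted p under 0.05). At an unadjusted p under 0.05 there was 1 XTH gene and there were 4 expansins, beside 8.12% of all genes. Groups did not overlap for EXPA5, EXPA8 and EXPB1, lower in tmk1, and EXPA4, higher in tmk1, and for 0 of 19 XTH genes. Over all genes the share was 13.3%, with 6.16% lower and 7.1% higher in tmk1. Means were lower in tmk1 for 11 of 19 XTH genes and 11 of 16 expansins, beside 47.9% of all genes. Without iaa32iaa34 replicate 3, 9 XTH genes were lower and 10 higher. Over the alternatives 9 of 19 XTH genes and 6 of 16 expansins changed direction under at least 1, so no direction is given between the mutants.

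EXPA6 and EXPA1 were the steadiest of the abundant alpha-expansins. EXPA6 spanned 1.38-fold over the 9 libraries, with means of 177 ± 20 CPM in tmk1, 191 ± 21 in iaa32iaa34 and 192 ± 15.1 in WT (SD, n = 3). EXPA1, known from guard cells and root growth, averaged 204 ± 29.4, 232 ± 22.5 and 250 ± 10.7 CPM in tmk1, iaa32iaa34 and WT. EXPA3 had 311, 453 and 449 CPM in tmk1, 359, 708 and 594 CPM in iaa32iaa34, and 567, 485 and 683 CPM in WT, so the tmk1 libraries were below WT and iaa32iaa34 overlapped with both. EXPA15 and EXPA16 stayed under 25 CPM in all 9 libraries, at 12.5 to 23.6 and 7.39 to 21.4 CPM. EXLB1 had 1.56 to 9.43 CPM and an estimated 18 reads in its lowest library, the fewest of any measured member.

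**Figure D4:**
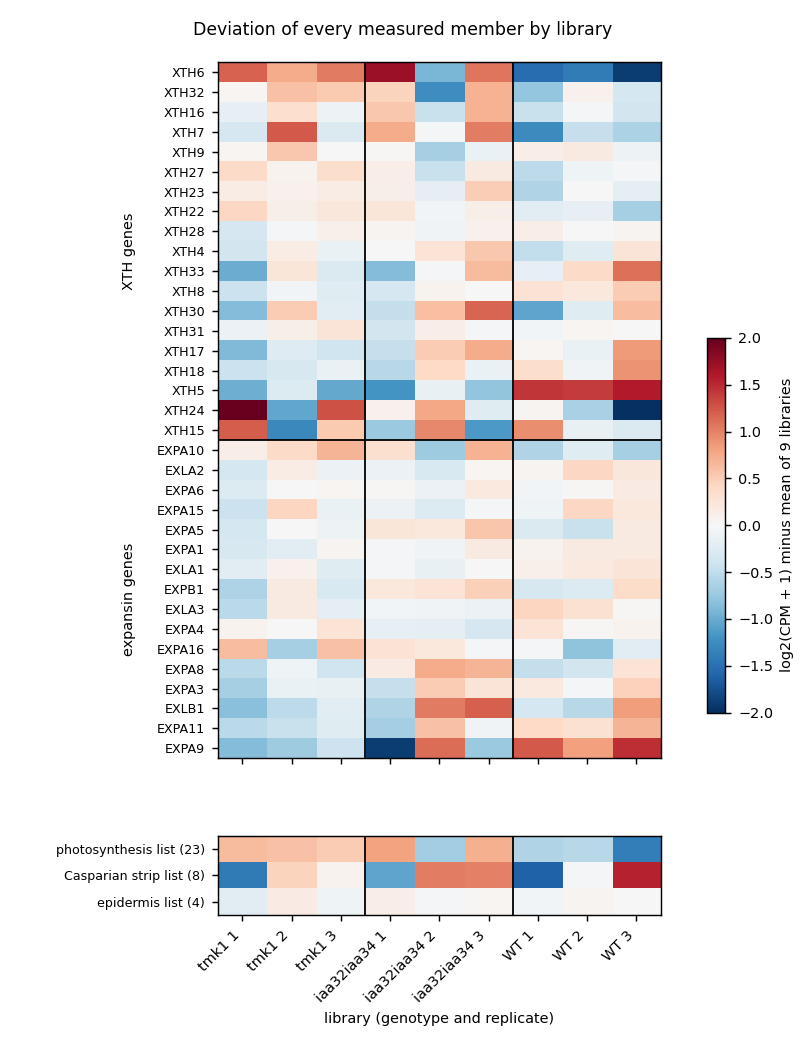
Log2(CPM + 1) of each measured member in each library minus its mean over the 9 libraries, with colour limited at 2 either way, and below it the mean deviation of the photosynthesis, Casparian strip and epidermis lists. Genes of each family are ordered by the difference of the second iaa32iaa34 library from the other iaa32iaa34 libraries. In that library the photosynthesis list stands at -0.69, against 0.80 and 0.71 in the other iaa32iaa34 libraries and -1.39 to -0.55 in WT.

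Other genes that make or modify wall polymers were taken from lists set beside the members. Of 12 measured xyloglucan synthesis genes none passed in tmk1 (limma, 5 at an unadjusted p under 0.05, beside 21.4% of all genes). Means were lower for 10 of the 12, beside 58.1% of all genes, the median log2 fold change being -0.308. In iaa32iaa34 none passed (limma, 3 at an unadjusted p under 0.05, beside 16.6% of all genes) and 9 were lower, beside 58.2% of all genes, with a median of -0.132. FUT1, the xyloglucan fucosyltransferase, had 21.7, 24.3 and 23.7 CPM in tmk1, 22.5, 24.2 and 23.6 CPM in iaa32iaa34, and 31.3, 31.6 and 33.3 CPM in WT. All 6 mutant libraries of FUT1 were below WT, with log2 fold changes of -0.45 ± 0.12 and -0.44 ± 0.12 in tmk1 and iaa32iaa34 (limma, adjusted p = 0.0879 and 0.157). XXT2, a xyloglucan xylosyltransferase, averaged 145 ± 11.2 CPM in tmk1, 161 ± 26.8 in iaa32iaa34 and 218 ± 19.1 in WT (SD, n = 3; limma, adjusted p = 0.0877 in tmk1).

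Of the 3 xyloglucan-trimming glycosidase genes none passed in either mutant (limma, 2 at an unadjusted p under 0.05 in each), where these shares over all genes are 21.4% in tmk1 and 16.6% in iaa32iaa34. All 3 were lower in each, beside 58.1% and 58.2% of all genes, with medians of -0.593 in tmk1 and -0.616 in iaa32iaa34. BGAL10, a beta-galactosidase that acts on xyloglucan, had 249, 292 and 258 CPM in tmk1, 246, 323 and 225 CPM in iaa32iaa34, and 387, 398 and 417 CPM in WT. Its mutant libraries were all below WT, with log2 fold changes of -0.59 ± 0.16 in tmk1 and -0.62 ± 0.16 in iaa32iaa34 (limma, adjusted p = 0.0905 and 0.146). None of 7 pectin modification genes passed in either mutant (limma, 0 at an unadjusted p under 0.05), with median log2 fold changes of -0.238 in tmk1 and -0.043 in iaa32iaa34. In that list PME2, a pectin methylesterase, had the smallest p in tmk1, at 17.6 ± 5.71 CPM in tmk1 and 34.3 ± 15.5 CPM in WT (SD, n = 3; limma, adjusted p = 0.267).

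Of 5 measured mannan genes, which make or cut another wall hemicellulose, 1 fell in tmk1 and none passed in iaa32iaa34 (limma), beside 0.195% of all genes that fell in tmk1. At an unadjusted p under 0.05 there were 4 in tmk1, beside 21.4% of all genes, and 3 in iaa32iaa34, beside 16.6%. The medians were -0.71 in tmk1 and -0.352 in iaa32iaa34. MAN7, an endo-beta-mannanase, had 19.6, 19.9 and 24.3 CPM in tmk1, 35.2, 42.4 and 34.9 CPM in iaa32iaa34, and 45.9, 43.1 and 53.4 CPM in WT. It fell in tmk1, with a log2 difference of -1.12 ± 0.15 (limma, adjusted p = 0.0195), and had a log2 fold change of -0.33 ± 0.15 in iaa32iaa34 (limma, adjusted p = 0.292). The difference of MAN7 between the mutants, -0.79 ± 0.15, did not pass (limma, adjusted p = 0.165). Over 17 alternatives the log2 fold change of MAN7 in tmk1 was -1.22 to -1.03, and it passed in 12 of them. It lost the call without any 1 of the WT libraries or without tmk1 replicate 1 or 3 (limma, adjusted p = 0.0635 to 0.144). In iaa32iaa34 the smallest p among the mannan genes was that of MAN2 (limma, adjusted p = 0.213), and among the pectin genes that of PME35 (limma, adjusted p = 0.661). Between tmk1 and iaa32iaa34 no gene of these 4 lists passed (limma, 0 or 1 gene in each at an unadjusted p under 0.05). The smallest p-values there were those of XLT2 for xyloglucan synthesis, AXY8 for trimming, PME35 for pectin and MAN7 for mannan (limma, adjusted p = 0.561, 0.75, 0.57 and 0.165).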

How the data were processed

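Per the labels' protocols, RNA-seq libraries of apical hooks started from 1 µg of RNA and a directional kit was used. The authors deposited 1 table of CPM values for 16383 genes and 9 libraries. The submitters' processing notes name HISAT and HTSeq but no versions. Genome build, annotation and strand setting were not given in the sources used here. All deposited genes exceeded 1 CPM in 3 or more libraries, which keeps out members that were low throughout. In each library the CPM values lay within 0.01 of whole multiples of the value of 1 read, which gave the library totals. A separate test of the lowest values did not accept these steps as single reads in 3 libraries, so totals and read numbers are estimates. They were used to describe depth only, where 3 reads were worth 0.221 to 0.298 CPM.

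All 9 libraries entered 1 linear model on log2(CPM + 1) with genotype as the group (limma 3.58.1 in R 4.3.3, with a mean-variance trend). A filter of at least 1 CPM in at least 3 libraries removed 0 genes. Tests were two-sided, with Benjamini-Hochberg adjustment over the 16383 genes and a threshold of 0.05. An error of a level is an SD over 3 libraries, and that of a log2 fold change is a standard error. Both mutant comparisons use the same WT libraries.

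Replicate numbers come from the labels, which do not say that a number marks a shared batch. Between tmk1 and WT, deviations of libraries of the same number had r = 0.528, 0.129 and 0.14 over genes, and those of different numbers -0.461 to 0.304. The value of 0.304, for tmk1 replicate 2 and WT replicate 3, was above those of both libraries with their own number. Only replicate 1 thus stood out as a pair, and a fit blocked by replicate number is given where it changes a call. For iaa32iaa34 and WT the values of the same number were 0.348, -0.398 and 0.459, and for tmk1 and iaa32iaa34 0.364, -0.141 and 0.123, so these numbers were not taken as pairs.

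Members and all lists, the Casparian strip list included, were chosen with earlier results of these data known. Library values are given for members past the threshold, then for up to 5 with the smallest p and up to 5 with the highest level per family. Other members are named with ranges or means. This rule was not kept throughout. XTH16, XTH24 and XTH33 lie outside it and were given library values with their results known. Some members within it, such as XTH9 and EXLA1, were not given by library. In the other wall lists the genes past the threshold were named, or else the 1 with the smallest p. FUT1 is the one for iaa32iaa34 and XXT2 for tmk1. Symbols, transcript lengths for CPM per kb, shared stretches of 50 bases and overlapping genes came from RefSeq TAIR10.1, matched by locus tag. The build behind the table may differ, so no coordinates or sequences are given. Alternatives were other pseudocounts (0.25 and 4), no filter on low values, a mean CPM of at least 3, median-of-ratios scaling and no trend. The others were only the 6 libraries compared, the block, and leaving out each library in turn.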

Additional observations from a re-analysis of the deposited data

How the results depend on the processing

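For tmk1 against WT, 2 XTH genes and 3 expansins passed with only the 6 libraries compared, and 2 XTH genes and 0 expansins passed with the replicate block, beside 1 and 0 as reported (limma). Leaving out 1 library at a time gave 0 to 2 XTH genes and 0 to 3 expansins in tmk1, and 0 to 3 XTH genes and 0 to 2 expansins in iaa32iaa34. No XTH gene passed in tmk1 without any 1 WT library or without tmk1 replicate 1 or 3, nor in iaa32iaa34 without any 1 WT library or without iaa32iaa34 replicate 1 or 3. The highest counts came without the second iaa32iaa34 library, and without the first there were 2 XTH genes in tmk1. Between the mutants 0 members passed under all 17 alternatives. The block changed no other count of members past the adjusted threshold. At an unadjusted p under 0.05 the block gave 10 XTH genes and 6 expansins in tmk1 (9 and 4 without it), 7 and 5 in iaa32iaa34 (5 and 4) and 2 and 5 between the mutants (1 and 4). With median-of-ratios scaling 4 members near 0 changed sign, EXPA4 and XTH15 in tmk1 and EXPA6 and XTH28 in iaa32iaa34. Over the 17 alternatives XTH5 had log2 fold changes of -2.47 to -2.02 in tmk1 and -2.46 to -1.94 in iaa32iaa34 and passed in 12 for each mutant. Those of XTH6 were 2.09 to 2.78 in tmk1 and 1.69 to 3.01 in iaa32iaa34. All genes passed the low-value filter, so dropping it, which is counted among the 17 alternatives, repeated the main fit. Its passes for XTH5 and MAN7 are therefore not separate checks. A count model on reads recovered from the CPM steps was not run. With 3 libraries a genotype, even large differences of variable members could miss the threshold, as that of XTH24 in tmk1 did (log2 fold change 1.80 ± 0.78).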
